A study of Mus musculus with 6 samples.

Results

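The mRNA decay regulators described here are 9 genes of 4 small families: the zinc finger proteins Zfp36, Zfp36l1 and Zfp36l2, the Regnases Zc3h12a and Zc3h12d, the Roquins Rc3h1 and Rc3h2, and the antiproliferative factors Btg1 and Btg2. They were chosen by name, with earlier results of these data known. Each symbol was found once among the 41079 genes of the deposited table. Transcripts were measured in D10 cells, a mouse T cell line derived from 1 helper T cell clone of the lymph node, which the labels call CD4+. The non-acclimated group was kept at 37°C for 24 h and the cold-acclimated group at 26°C for 24 h, with 3 replicates each, and the labels name no genetic change or drug in either group. Values are TPM, a measure of transcript abundance in which reads are divided by gene length and every library is brought to one common total, which lets levels be compared between genes.

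How long an mRNA lasts is set in large part by proteins that bind its 3′ untranslated region (UTR). ZFP36 proteins bind AU-rich elements, Roquins and Regnase-1 bind stem-loops, and both routes end in removal of the poly(A) tail by the CCR4-NOT complex or in cutting of the message. BTG proteins bind the CCR4-NOT deadenylases and speed the shortening of poly(A) tails in general. In T cells these proteins hold down cytokine and costimulatory mRNAs, and BTG1 and BTG2 are known for keeping resting T cells quiescent.

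Several of these regulators are themselves encoded by mRNAs with AU-rich elements, so their 3′ UTRs were searched for the heptamer TATTTAT, with U for each T in the mRNA, on the transcribed strand, with overlapping matches counted. The UTRs are those of the canonical transcripts of GENCODE vM39 on GRCm39. Zfp36 held 3 matches in 774 bases, Zfp36l1 held 3 in 1835 bases and Zfp36l2 held 3 in 2049 bases. Among tested genes with a 3′ UTR within 10% of the same length, 0.9% held at least as many matches as Zfp36, 4.1% as Zfp36l1 and 3.9% as Zfp36l2, whereas 20.5%, 37.9% and 39.3% held any. Btg2 held 1 match in 2199 bases, where 40.4% of genes of like length held any. Rc3h1 held 2 in 7181 bases and Rc3h2 held 4 in 6336 bases, where 75.0% and 69.7% held any, and 1 of the matches of Rc3h2 lies beyond the end of the gene in the deposited table. The letters were not found in the 3′ UTRs of Btg1 (4166 bases), Zc3h12a (856 bases) or Zc3h12d (2327 bases). A match is a run of letters in a window and not a measured binding site. The sequences that follow are 2 of the matches of Zfp36 and the first match of Zfp36l1, Zfp36l2 and Btg2, because Zfp36 and Btg2 were the members called downregulated and Zfp36l1 and Zfp36l2 are the paralogs of Zfp36 with the same number of matches. Each is on the minus strand, written 5′ to 3′, with the heptamer in capitals.
Zfp36, chr7:28076392-28076418: gtgggcccttTATTTATgacgacttta
Zfp36, chr7:28076352-28076378: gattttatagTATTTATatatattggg
Zfp36l1, chr12:80155197-80155223: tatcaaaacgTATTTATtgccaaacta
Zfp36l2, chr17:84492343-84492369: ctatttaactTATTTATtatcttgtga
Btg2, chr1:134004988-134005014: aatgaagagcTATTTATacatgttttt

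**Figure D1:**
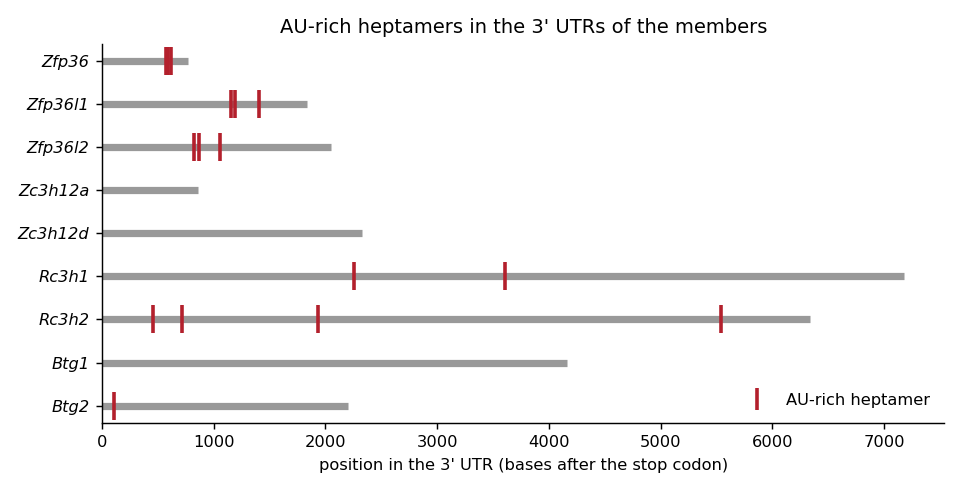
Positions of the AU-rich heptamer in the 3′ UTRs of the 9 members. The horizontal axis is the position in bases after the stop codon, each grey bar spans the annotated 3′ UTR and each red mark is the start of a match. The 3 matches of Zfp36 lie close together between positions 575 and 615 of its 774 bases, and the match of Btg2 starts at position 103.

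The libraries held 16899606 to 31290821 reads on genes, recovered from the steps between the TPM values, and these are the depth behind every value below. All 11 T cell markers were detected at a mean of at least 1 TPM, and their summed level was 3359 to 5122 TPM at 37°C and 3719 to 4857 TPM at 26°C. The B cell markers summed to at most 3.62 TPM and the macrophage and monocyte markers to at most 21.2 TPM in any library, with 1 of 8 and 2 of 8 at a mean of at least 1 TPM, and Ms4a1, Adgre1 and Csf1r at or near 0. Cd4 itself went against the label in 4 libraries, because it was at 0.0351 to 1.30 TPM in replicates 1 and 2 of both groups and at 310 and 328 TPM in replicate 3. Replicate 3 therefore stands apart in both groups. Results without it are also given for several members and for the counts of calls, but not for every gene named. Differences were tested with limma on log2(TPM + 1) over the 12227 genes with a mean of at least 1 TPM, and calls needed both an adjusted p (Benjamini-Hochberg) under 0.05 and a log2 fold change of 1 or more in either direction. On this scale the changes of weakly expressed genes are understated.

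Of the 9 members, 8 were tested. Btg2 and Zfp36 were called downregulated after 24 h at 26°C, and 0 members were called upregulated, where 16% of all tested genes were called downregulated and 2.63% upregulated. By unadjusted limma p, 1 member was higher and 2 were lower at p under 0.05, and limma voom on the recovered reads called 0 members upregulated and 1 downregulated. The shares of all tested genes by these measures are not given, here or for the lists below. Such counts are therefore not read as a result about the members or the lists. The median log2 fold change of the 8 members was 0.42, and that of all tested genes was -0.34. After rescaling of the libraries by the median ratio of their genes to the geometric mean over libraries (median of ratios), the median of all genes was 0.03 and that of the members 0.81. With that scaling Btg1 was called upregulated and Btg2 downregulated, where 6.87% of all tested genes were called upregulated and 8.6% downregulated. The groups did not overlap in 4 members, which were higher at 26°C in Rc3h1 and Btg1 and lower in Zfp36 and Btg2. Across all tested genes, 9.69% were higher and 31.4% lower without overlap. A fit with the replicate number as a block called 0 members upregulated and 2 downregulated, where 3.75% and 21.9% of all tested genes were called. In bulk RNA, fewer cells that express a gene and less of its RNA per cell cannot be told apart.

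**Figure D2:**
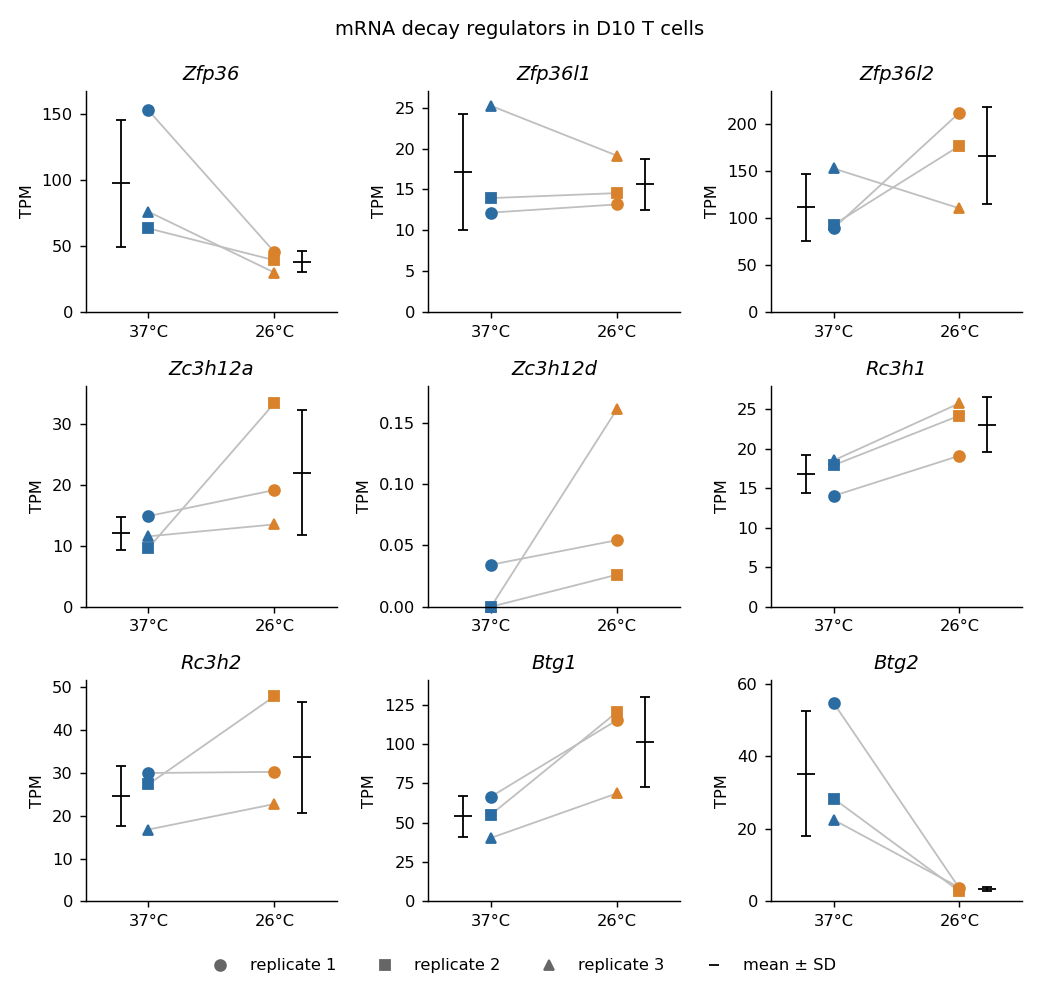
TPM of the 9 members in every library, at 37°C (blue) and 26°C (orange), with grey lines joining libraries of the same replicate number and black bars for the mean ± SD of 3 libraries (not drawn for Zc3h12d, which has libraries at 0). Each panel has its own vertical axis, which starts at 0. Btg2 is at 22.5 to 54.7 TPM at 37°C and at 2.77 to 3.78 TPM at 26°C, and the libraries of replicate 3 run against the other replicates in Zfp36l2.

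Btg2, on chromosome 1 (134002603 to 134006893, minus strand), had the largest change of the members. It was at 54.7, 28.3 and 22.5 TPM in non-acclimated replicates 1, 2 and 3, and at 3.56, 2.77 and 3.78 TPM in cold-acclimated replicates 1, 2 and 3. Every cold-acclimated library was thus below every non-acclimated one, and the cold-acclimated libraries lay much closer together than the others. The mean fell from 35.2 ± 17.2 to 3.37 ± 0.529 TPM (SD, n = 3 each), so that it was 10.4 times higher at 37°C, and the log2 fold change was -2.95 (standard error 0.36, 95% interval -3.79 to -2.12, limma adjusted p = 0.00697). The low level rested on 95, 77 and 119 reads against 1156, 718 and 834 reads at 37°C, which is well above the few reads at which counting would limit the value. By replicate the change was -3.61, -2.96 and -2.30, and without replicate 3 it was -3.28 (limma adjusted p = 0.00332). Btg2 was called downregulated under each of the 14 alternatives tried, with log2 fold changes from -3.28 to -2.42 and limma adjusted p from 0.00332 to 0.0438.

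Btg1, on chromosome 10 (96452863 to 96458675, plus strand), encodes the closest relative of BTG2 and moved the other way. Its level was 66.5, 55.1 and 40.3 TPM at 37°C and 115, 120 and 68.6 TPM at 26°C in replicates 1, 2 and 3. The groups did not overlap, although the margin was small, with the cold-acclimated library of replicate 3 just above the highest non-acclimated library. The means were 54.0 ± 13.1 and 101 ± 28.4 TPM, and the log2 fold change of 0.88 (standard error 0.31, 95% interval 0.17 to 1.6, limma adjusted p = 0.078) did not pass the threshold. With median of ratios scaling it was 1.29 (limma adjusted p = 0.0398) and was called upregulated. It was also called without cold-acclimated replicate 3 (1.14, limma adjusted p = 0.0229). With the replicate block the adjusted p was 0.0174 at the same fold change, and without replicate 3 it was 0.0224 at 0.95, both under the fold threshold.

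Within each library, the log2 ratio of Btg1 to Btg2 does not depend on the scaling between libraries except through the pseudocount. It was 0.28, 0.94 and 0.81 at 37°C and 4.67, 5.0 and 3.86 at 26°C in replicates 1, 2 and 3. The mean ratio differed by 3.84 between the groups, far more than the SDs of 0.35 and 0.59. The exact permutation test, two-sided and without the pairing by replicate number, gave p = 0.1, the smallest the 20 assignments allow. After adjustment over 5 paralog pairs, the p of this exact permutation test was 0.25. Expressed as a share of the TPM of both genes, Btg2 made up 45.1%, 33.9% and 35.8% at 37°C and 3.00%, 2.26% and 5.22% at 26°C. The sum of both genes was 89.2 ± 29.6 TPM at 37°C and 105 ± 28.0 TPM at 26°C, a difference smaller than the spread between replicates.

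Zfp36, on chromosome 7 (28076208 to 28078680, minus strand), encodes tristetraprolin, the AU-rich element binding protein best known for limiting Tnf mRNA. At 37°C it was at 152, 63.2 and 75.8 TPM in replicates 1, 2 and 3, and at 26°C at 45.4, 39.2 and 29.8 TPM. All cold-acclimated values were lower, and the spread at 37°C came mostly from replicate 1. The mean fell from 97.2 ± 48.3 to 38.1 ± 7.83 TPM, with a log2 fold change of -1.24 (standard error 0.36, 95% interval -2.08 to -0.40, limma adjusted p = 0.0483), and by replicate it was -1.73, -0.68 and -1.32. This call stood close to the threshold and was lost under 13 of the 14 alternatives, with limma adjusted p from 0.05 to 0.167. Each library left out in turn ended it, with log2 fold changes from -1.49 to -0.86, and so did leaving out replicate 3 (-1.20, limma adjusted p = 0.0719) and median of ratios scaling (-0.83, limma adjusted p = 0.167). It was kept with the replicate block (limma adjusted p = 0.0133). Zfp36 lies within the span of Paf1 on the opposite strand, and the strand setting of the counting is not given in the sources used here. Paf1 itself was at 36.0 to 50.9 TPM in the 6 libraries, with a log2 fold change of -0.16 (limma adjusted p = 0.625).

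Zfp36l2, on chromosome 17 (84491352 to 84495375, minus strand), had the highest mean level of the members in both groups, although Zfp36 was higher in non-acclimated replicate 1 and their ranges at 37°C overlapped. ZFP36L2 is an AU-rich element binding protein of lymphocytes. Its level was 89.2, 93.0 and 153 TPM at 37°C and 212, 177 and 110 TPM at 26°C. The groups overlapped, because replicate 3 was the highest library at 37°C and the lowest at 26°C. The log2 fold change was 0.57 (standard error 0.33, 95% interval -0.21 to 1.34, limma adjusted p = 0.256), and by replicate it was 1.24, 0.92 and -0.47. Without replicate 3 it was 1.08 and was called upregulated (limma adjusted p = 0.0149), and with median of ratios scaling over all libraries it was 0.98 (limma adjusted p = 0.0929). The difference between replicate 3 and the others was not tested, and the role of the Cd4 level that separates them was not tested.

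Zfp36l1, on chromosome 12 (80154534 to 80159787, minus strand), had a low level beside its paralogs. It was at 12.2, 13.9 and 25.2 TPM at 37°C and at 13.2, 14.6 and 19.1 TPM at 26°C. Replicate 3 was the highest library in both groups, and the groups overlapped. Its log2 fold change was -0.07 (standard error 0.33, 95% interval -0.83 to 0.69, limma adjusted p = 0.9), and the direction depended on the processing, with 0.32 after median of ratios scaling.

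The 3 ZFP36 family genes together summed to 226 ± 48.3 TPM at 37°C and 220 ± 56.5 TPM at 26°C, while their shares differed. Zfp36 made up 60.1%, 37.2% and 29.9% of the family at 37°C and 16.8%, 16.98% and 18.7% at 26°C. Zfp36l2 made up 35.1%, 54.6% and 60.2% at 37°C and 78.4%, 76.7% and 69.3% at 26°C. Neither share overlapped between the groups, also in replicate 3, where Zfp36l2 itself was lower at 26°C. The log2 ratio of Zfp36 to Zfp36l2 was -0.26 ± 0.92 at 37°C and -2.07 ± 0.19 at 26°C, a difference of -1.81 (exact permutation test, two-sided, p = 0.1, the smallest possible, and 0.25 after adjustment). The log2 ratio of Zfp36l1 to Zfp36l2 differed by -0.64 (exact permutation test, p = 0.4, adjusted 0.5). This was less than the SD of 0.75 at 26°C and more than the SD of 0.11 at 37°C. The difference was -0.33 when replicate 1 was left out at 26°C and -1.05 when replicate 3 was left out there.

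**Figure D3:**
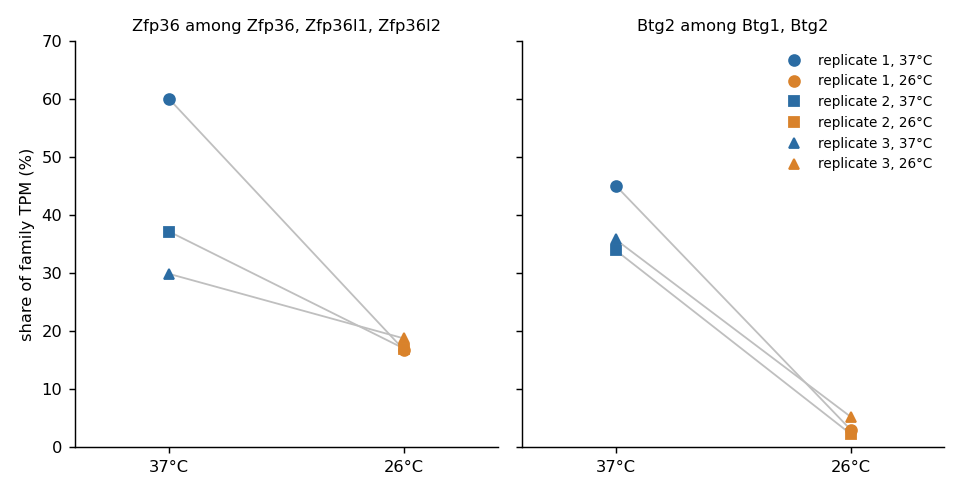
Share of Zfp36 in the summed TPM of Zfp36, Zfp36l1 and Zfp36l2 (left) and of Btg2 in the summed TPM of Btg1 and Btg2 (right), in percent, for each library at 37°C (blue) and 26°C (orange). Lines join libraries of the same replicate number. The share of Zfp36 is 29.9% to 60.1% at 37°C and 16.8% to 18.7% at 26°C, and that of Btg2 is 33.9% to 45.1% and 2.26% to 5.22%.

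Zc3h12a, on chromosome 4 (125012207 to 125021674, minus strand), encodes Regnase-1, an endonuclease that cuts cytokine and costimulatory mRNAs. It was at 14.9, 9.67 and 11.6 TPM at 37°C and at 19.2, 33.5 and 13.6 TPM at 26°C. It was higher at 26°C in each replicate, by 0.34, 1.69 and 0.21 on the log2 scale, but the groups overlapped and replicate 2 stood out. The log2 fold change of 0.75 (standard error 0.36, 95% interval -0.09 to 1.59, limma adjusted p = 0.173) did not pass the threshold, and it was 0.41 without cold-acclimated replicate 2 and 1.02 without replicate 3 (limma adjusted p = 0.445 and 0.0722).

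Zc3h12d, on chromosome 10 (7708087 to 7746161, plus strand), encodes the related Regnase-4 and was barely detected. It had 1, 0 and 0 recovered reads at 37°C and 2, 1 and 7 reads at 26°C, so that its highest level was 0.161 TPM in cold-acclimated replicate 3. In the other 5 libraries it was below the level that 3 reads would give, which lay between 0.0586 and 0.103 TPM across the libraries. It was not tested, and no difference was detectable at this depth. The log2 ratio of Zc3h12a to Zc3h12d was 3.67 at 37°C and 4.33 at 26°C with the pseudocount in place (exact permutation test, p = 0.3, adjusted 0.5), and with Zc3h12d near 0 it mainly follows Zc3h12a.

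Rc3h1, on chromosome 1 (160733981 to 160802546, plus strand), encodes Roquin-1, which recognises stem-loops in the mRNAs of Icos, Tnfrsf4 and other costimulatory genes. Its values were 14.1, 17.9 and 18.5 TPM at 37°C and 19.1, 24.2 and 25.8 TPM at 26°C. The groups did not overlap, and the replicates differed between the groups by almost the same amount, 0.42, 0.41 and 0.46 on the log2 scale. The log2 fold change was 0.43 (standard error 0.24, 95% interval -0.14 to 1.00, limma adjusted p = 0.241), and 0.82 with median of ratios scaling (limma adjusted p = 0.0443), which is under the fold threshold.

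Rc3h2, on chromosome 2 (37260078 to 37313007, minus strand), encodes Roquin-2, which overlaps in function with Roquin-1. It was at 29.97, 27.3 and 16.8 TPM at 37°C and at 30.2, 47.9 and 22.7 TPM at 26°C. The groups overlapped, and replicate 1 was at almost the same level in both. The log2 fold change was 0.41 (standard error 0.35, 95% interval -0.41 to 1.22, limma adjusted p = 0.443). With median of ratios scaling it was 0.80 (limma adjusted p = 0.163). Leaving out the 26°C library of replicate 2 gave 0.12, leaving out replicate 3 at 37°C gave 0.16, and leaving it out at 26°C gave 0.65. The snoRNA gene Snord90, which lies inside Rc3h2 on the same strand, was listed at 0 in every library. The log2 ratio of Rc3h1 to Rc3h2 was -0.50 ± 0.59 at 37°C and -0.47 ± 0.58 at 26°C, a difference of 0.02 (exact permutation test, two-sided, p = 0.9, adjusted 0.9), with Rc3h2 at 58.7% ± 10.4 and 58.2% ± 10.1 of their summed TPM.

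**Figure D4:**
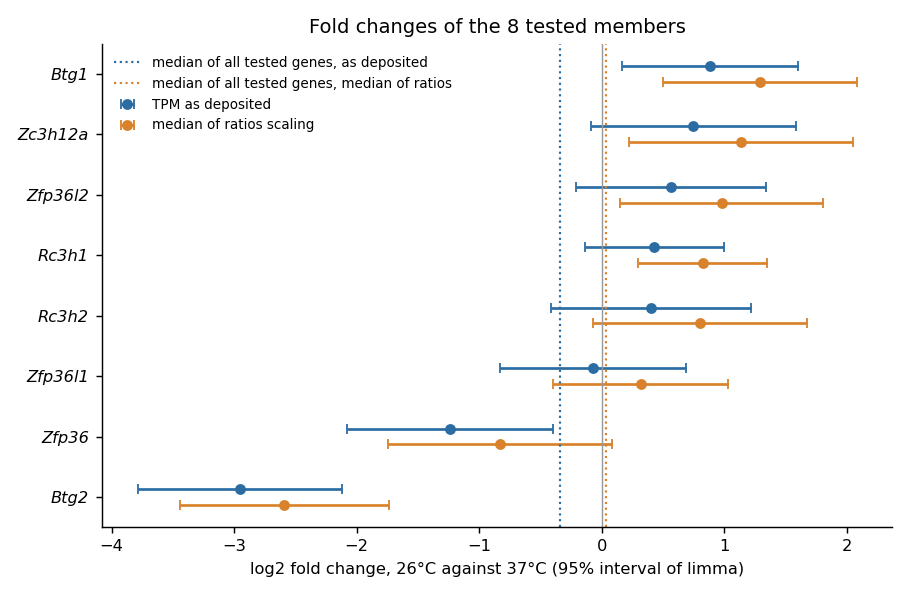
Log2 fold change at 26°C against 37°C of the 8 tested members with 95% intervals from limma, with TPM as deposited (blue) and after median of ratios scaling (orange). Dotted lines mark the medians of all 12227 tested genes, -0.34 and 0.03. Btg2 stands at -2.95 and -2.59, Btg1 at 0.88 and 1.29, and every member has a higher value after the rescaling.

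At 37°C the order of the mean levels was Zfp36l2 (112 TPM), Zfp36 (97.2), Btg1 (54.0), Btg2 (35.2), Rc3h2 (24.7), Zfp36l1 (17.1), Rc3h1 (16.8), Zc3h12a (12.1) and Zc3h12d. Of neighbours in this order, only Zc3h12a and Zc3h12d had ranges that did not overlap. At 26°C it was Zfp36l2 (166 TPM), Btg1 (101), Zfp36 (38.1), Rc3h2 (33.6), Rc3h1 (23.1), Zc3h12a (22.1), Zfp36l1 (15.6), Btg2 (3.37) and Zc3h12d. Here the ranges of Btg1 and Zfp36, of Zfp36l1 and Btg2, and of Btg2 and Zc3h12d did not overlap, and those of the other neighbours did. Btg2 thus ranked 4 of 9 at 37°C and 8 of 9 at 26°C.

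The genes most like Btg2 over the 6 libraries were sought by the root mean square difference of log2(TPM + 1), each gene centred on its mean. They were Tmco6 (difference 0.18, from 28.9 ± 13.8 to 2.77 ± 0.651 TPM), Trim30c (0.19, from 15.5 ± 7.63 to 1.07 ± 0.314 TPM) and Pcyox1l (0.22, from 104 ± 36.7 to 12.5 ± 3.28 TPM). Their log2 fold changes were -2.89, -2.89 and -2.92, close to the value of Btg2, which follows from the way they were picked. Those most like Zfp36 were Glb1l (difference 0.15, log2 fold change -1.01), the noncoding gene 2310001H17Rik (0.16, -1.08) and Dcaf6 (0.20, -1.26). Of these 3, Dcaf6 passed the test (limma adjusted p = 0.0324), and Glb1l and 2310001H17Rik did not (limma adjusted p = 0.0712 and 0.108).

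The enzymes and binding proteins that work with the members were taken from 5 lists of the decay machinery, with 79 genes, of which 77 were tested. Of these, 2 were called upregulated and 8 downregulated, where 2.63% and 16% of all tested genes were called, and the median log2 fold change was -0.10 where that of all genes was -0.34. With median of ratios scaling 10 were called upregulated and 3 downregulated, where 6.87% and 8.6% of all tested genes were called, with a median of 0.31, so the balance of the 2 directions depended on the scaling. With a library left out, 1 was called upregulated without any one of non-acclimated replicates 1 and 2 and cold-acclimated replicates 1, 2 and 3, and 3 without non-acclimated replicate 3. The number called downregulated was 0 without non-acclimated replicate 2 or cold-acclimated replicate 1, and 2 when non-acclimated replicate 1 or cold-acclimated replicate 2 was missing. It was 6 when replicate 3 was missing at 37°C and 12 when it was missing at 26°C. Leaving out both libraries of replicate 3 gave 3 and 11. The shares of all tested genes in these fits are not given, so the changes in number are not read as particular to these genes.

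The deadenylation and poly(A) binding list held 19 tested genes, among them the CCR4-NOT subunits and the BTG and TOB proteins that bind them. Btg3, a further BTG family gene, was at 29.9, 25.9 and 37.5 TPM at 37°C and at 176, 104 and 135 TPM at 26°C. It rose in all replicates without overlap (log2 fold change 2.1, standard error 0.27, limma adjusted p = 0.0071), the opposite direction to Btg2. Cnot6, one of the CCR4-type deadenylases, fell from 83.8 ± 10.8 to 26.7 ± 9.99 TPM (-1.67, limma adjusted p = 0.013). Cnot3, a regulatory subunit of the same complex, fell from 32.3 ± 3.07 to 11.5 ± 1.71 TPM (-1.42, limma adjusted p = 0.0101). The other 16 genes were not called, and the median of the list was -0.10. Thus 1 gene of the list was called upregulated and 2 downregulated, where 2.63% and 16% of all tested genes were called. With the replicate block 3 genes of this list were called downregulated, where 21.9% of all tested genes were. The third was Cnot6l, a paralog of Cnot6 named here after its values were seen. Its log2 fold change was -1.19 (limma adjusted p = 0.112 without the block and 0.0109 with it). With median of ratios scaling 3 genes of the list were called upregulated and 2 downregulated, where 6.87% and 8.6% of all tested genes were called. Beside Btg3, those upregulated were the CCR4-NOT subunits Cnot11 (1.21, limma adjusted p = 0.0157) and Cnot2 (1.08, limma adjusted p = 0.0288), named after their values were seen.

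Of 19 tested genes for decapping and 5′ decay, 3 were called downregulated and 0 upregulated in limma, where 16% and 2.63% of all tested genes were called, so that the share called downregulated was near that of all genes. In this list 2 were higher and 4 lower at an unadjusted p under 0.05, and voom called 0 upregulated and 2 downregulated. Dcp2, the decapping enzyme, fell from 31.2 ± 8.18 to 11.8 ± 0.914 TPM (log2 fold change -1.30, limma adjusted p = 0.0188). Dcps, which clears the cap left after 3′ decay, fell from 138 ± 17.2 to 60.7 ± 17.9 TPM (-1.20, limma adjusted p = 0.0218). Edc3, an enhancer of decapping, fell from 33.0 ± 1.32 to 15.9 ± 2.71 TPM (-1.02, limma adjusted p = 0.0232). After median of ratios scaling 0 of these 3 were called, and Edc4, a scaffold of the decapping complex, was called upregulated. With the replicate block 4 genes were called downregulated, where 21.9% of all tested genes were. Among them was Lsm2, a subunit of the LSM ring, which was named after its values were seen. Its log2 fold change was -1.48 (limma adjusted p = 0.084 without the block and 0.00801 with it).

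In the list of the RNA exosome, the Ski complex and ribosome rescue, 16 of 17 genes were tested. Of these, 1 was called upregulated and 1 downregulated, where 2.63% and 16% of all tested genes were called. Dis3, a catalytic subunit of the exosome, rose from 101 ± 55.4 to 268 ± 31.7 TPM (log2 fold change 1.53, limma adjusted p = 0.0324). Skic3, a Ski complex subunit that feeds mRNA to the exosome, fell from 34.4 ± 12.8 to 11.97 ± 4.39 TPM (-1.44, limma adjusted p = 0.0338), a call that was lost with median of ratios scaling (-1.05, limma adjusted p = 0.0776). Among the 10 nonsense-mediated decay genes, 0 were called in limma in either direction, with 3 higher and 0 lower at an unadjusted p under 0.05 and 1 called upregulated by voom. Smg5, which takes part in the decay step of that pathway, had the smallest p there, with 64.2 ± 22.4 TPM at 37°C and 121 ± 14.9 TPM at 26°C (log2 fold change 0.96, limma adjusted p = 0.0617). With median of ratios scaling Smg5 was 1 of 3 genes of its list called upregulated, with 0 downregulated. In the exosome list that scaling called 2 upregulated and 0 downregulated. Among all tested genes it called 6.87% upregulated and 8.6% downregulated.

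Among the other proteins that bind RNA elements, 13 of 14 were tested, and 2 were called downregulated and 0 upregulated in limma, where 16% and 2.63% of all tested genes were called, so that the share called downregulated was near that of all genes. In this list 1 was higher and 4 were lower at an unadjusted p under 0.05, and voom called 0 upregulated and 2 downregulated. N4bp1, an endonuclease with a fold related to that of the Regnases, was at 26.9, 26.7 and 16.7 TPM at 37°C and at 7.78, 8.97 and 6.35 TPM at 26°C (log2 fold change -1.47, limma adjusted p = 0.0156). Tia1, which binds U-rich elements and is found in stress granules, was at 24.2, 17.5 and 11.9 TPM at 37°C and at 5.91, 3.73 and 6.96 TPM at 26°C (-1.51, limma adjusted p = 0.0231). Neither gene overlapped between the groups. With median of ratios scaling N4bp1 kept its call (-1.08, limma adjusted p = 0.0446) and Tia1 lost it (-1.14, limma adjusted p = 0.0546). That scaling called 1 gene of the list upregulated and 1 downregulated, where 6.87% and 8.6% of all tested genes were called. The upregulated one was Hnrnpd (1.16, limma adjusted p = 0.0216), named after its values were seen. Without the rescaling it was at 0.75 (limma adjusted p = 0.0827).

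Of 11 tested genes for kinases and the protease pathway that act on the members, 0 were called in limma. Among all tested genes 2.63% were called upregulated and 16% downregulated. In this list 1 was higher and 1 lower at an unadjusted p under 0.05, and voom called 1 upregulated. Mapkapk2, the kinase that phosphorylates tristetraprolin and inhibits it, was at 221, 211 and 200 TPM at 37°C and at 478, 425 and 283 TPM at 26°C. Its groups did not overlap, and its log2 fold change of 0.87 (standard error 0.26, limma adjusted p = 0.049) was under the fold threshold. With median of ratios scaling it was 1.28 and was called upregulated.

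Of 18 mRNAs known as targets of the members, 14 were tested, with a median log2 fold change of 0.56. In limma 2 were called upregulated and 0 downregulated, where 2.63% and 16% of all tested genes were called, with 3 higher and 0 lower at an unadjusted p under 0.05 and 3 upregulated by voom. Nfkbiz, an inducible NF-κB cofactor whose mRNA Regnase-1 cleaves, was at 16.9, 9.91 and 17.02 TPM at 37°C and at 43.3, 50.0 and 31.2 TPM at 26°C. It rose without overlap (log2 fold change 1.46, standard error 0.31, limma adjusted p = 0.0193). Tnfrsf4, which encodes the costimulatory receptor OX40, rose from 0.615 ± 0.396 to 3.25 ± 1.07 TPM (1.4, limma adjusted p = 0.0293), although it stayed at a low level. Its mean at 37°C was under the filter of 1 TPM, so it was tested only because of its level at 26°C. Its call is therefore not read as a result about the targets. The median of the list with median of ratios scaling was 0.96. With that scaling 3 were called upregulated and 0 downregulated, where 6.87% and 8.6% of all tested genes were called. The third was Icos, the costimulatory receptor gene and Roquin target, named after its values were seen. It was at 310.1, 453 and 286 TPM at 37°C and at 665, 781 and 553 TPM at 26°C, without overlap. Its log2 fold change was 0.94 (limma adjusted p = 0.0436), under the fold threshold, and 1.36 with median of ratios scaling (limma adjusted p = 0.0212).

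The direction of many target mRNAs differed between replicates. At 26°C, 11 of all 14 tested targets were higher in replicate 1, 11 in replicate 2 and 5 in replicate 3, where 35.7%, 32.0% and 35.4% of all tested genes were higher. In 7 of the 14 the mRNA was higher in replicates 1 and 2 and lower in replicate 3, the pattern that Zfp36l1 and Zfp36l2 also had, and 873 of the 12227 tested genes had it. Tnf and Il10 are examples chosen after their values were seen. Tnf was at 9.18, 3.46 and 11.4 TPM at 37°C and at 31.9, 22.05 and 7.59 TPM at 26°C (log2 fold change 1.18, limma adjusted p = 0.180). Il10 was at 365, 195 and 279 TPM at 37°C and at 1418, 473 and 181 TPM at 26°C (0.87, limma adjusted p = 0.393). For both, the replicates 1 and 2 with low Cd4 were higher at 26°C and replicate 3 with high Cd4 was lower, and the part of this in the result was not tested.

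**Figure D5:**
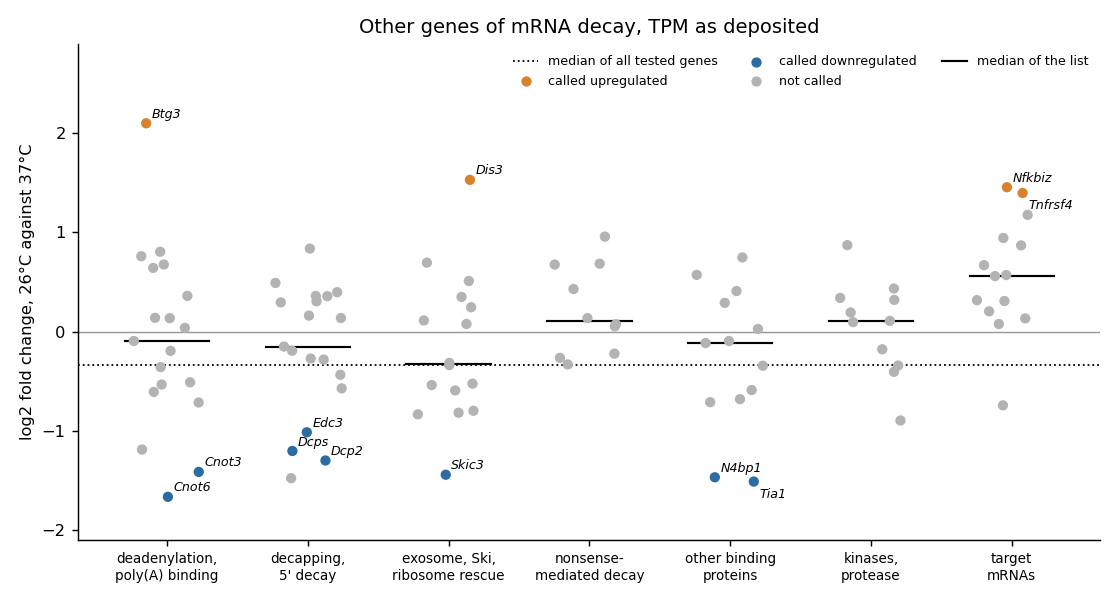
Log2 fold change at 26°C against 37°C, with TPM as deposited, of each tested gene in 7 lists around the members. Orange and blue points are genes called upregulated and downregulated in limma, grey points were not called, short black lines are list medians, and the dotted line is the median of all tested genes (-0.34). Btg3 is the highest point at 2.1, and Cnot6 at -1.67 is the lowest.

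The heptamer of ZFP36 proteins was also counted in the 3′ UTRs of all 10163 tested genes with an annotated 3′ UTR, to set the members beside other AU-rich mRNAs. The median log2 fold change was -0.36 for the 6929 genes with no match, -0.39 for the 2049 genes with 1, -0.38 for the 731 genes with 2 and -0.29 for the 454 genes with 3 or more. Among UTRs of 1000 to 2000 bases the medians were -0.43, -0.44, -0.44 and -0.32 for 0, 1, 2 and 3 or more matches. Of the genes with 3 or more, 3.74% were called upregulated and 15.86% downregulated, and of those with no match, 1.93% and 16.26%. These medians are a description across genes, which are not independent replicates, and were not tested.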

How the data were processed

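The libraries were made from poly(A)-selected RNA with a directional kit and sequenced from both ends. Per the submitters' processing notes, the tools were FastQC 0.11.7, Trimmomatic 0.38, HISAT2 2.1.0 and featureCounts 1.6.3, with the genome GRCm39. The authors deposited TPM values per gene. How counts were converted to TPM, with which gene lengths, annotation release and strand setting, is not given in the sources used here. The sources also differ on the culture medium, and the labels do not say which library belongs to which of the RNA extraction batches they mention.

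Read numbers were recovered as whole multiples of the largest step shared by a gene's TPM values, after scaling between libraries. This was possible for 99.99% of the 21195 genes above 0 in any library (tolerance 1e-06 reads, largest deviation 1.16e-10). A factor common to all read numbers of a gene is lost in this way, so that its numbers could be too low. Main tests used limma (version 3.58.1, R version 4.3.3), with eBayes and its trend option, on log2(TPM + 1) of genes whose mean TPM reached 1, with Benjamini-Hochberg adjustment. The p-values of the main fit set each difference against the spread between these libraries, and this fit did not use the pairing by replicate number. The study's own method, DESeq2, was not run on the recovered reads, for which limma voom was used instead. Paralog ratios were compared by exact permutation tests over the 20 assignments of libraries to groups, which did not use the pairing by replicate number. Intervals for the members are 95% intervals of limma, and the level of 3 reads covers counting error only. The remaining steps ran in Python 3.11.15 (pandas 2.3.3, numpy 2.4.6, scipy 1.17.1). The procedure was also run on simulated counts. These had no pairing by replicate and no replicate that stood apart, so the run does not cover those features of the data.

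Whether replicate numbers pair the libraries was checked from deviations from the group means. Their correlation across genes was 0.48, 0.50 and 0.51 for libraries of the same number and -0.41 to 0.02 for others, so the numbers pair them. The blocked fit, median of ratios and quantile scaling, a pseudocount of 0.1, no filter, voom on recovered reads and left-out libraries were alternatives.

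The genes named are the 9 members, the called genes of each wider list or, where there were none, the 2 with the smallest p, and the 3 genes most like each of the 2 members with the largest change. Some genes that this rule would name are not reported here. The members and lists were chosen with earlier results of these data known. Heptamers were searched in the 3′ UTRs of GENCODE vM39 canonical transcripts.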

Additional observations from a re-analysis of the deposited data

How the results depend on the processing

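With a replicate block, the paired fit called 2 members downregulated and 0 upregulated, and 2 and 10 of the wider decay genes upregulated and downregulated, against 2 and 8 without it, and it ended no call of a member. The number of members called downregulated was 1 in place of 2 with a pseudocount of 0.1, with no filter on low values, after median of ratios scaling, with and without the replicate block, after quantile normalization, with voom on recovered reads and without replicate 3, and it was 1 with each library left out in turn. The member lost was Zfp36. The number called upregulated was 1 in place of 0 after median of ratios scaling, with and without the replicate block (Btg1), and without replicate 3 (Zfp36l2), and 0 to 1 with a library left out. Wider decay genes called upregulated numbered 10 after median of ratios scaling, 12 with the replicate block added, 7 after quantile normalization and 1 with no filter, in place of 2, and 1 to 3 with a library left out. Those called downregulated numbered 3 after median of ratios scaling and 2 after quantile normalization in place of 8, and 0 to 12 with a library left out. Shares of all tested genes are given above for the main fit, the fit with a block and the fit with median of ratios scaling, and not for the others. The log2 fold change of Zfp36l1, -0.07, changed sign after median of ratios scaling (0.32, the same with the replicate block), after quantile normalization (0.47), with voom (0.017) and without replicate 3 (0.08), and ran from -0.27 to 0.23 with a library left out, above 0 when that was non-acclimated replicate 3 or cold-acclimated replicate 1 (0.034). The difference in the Rc3h1 to Rc3h2 ratio, 0.02, ran from -0.30 to 0.34 with a library left out, and was below 0 when non-acclimated replicate 1 (-0.25), non-acclimated replicate 2 (-0.019) or cold-acclimated replicate 3 was missing. Rc3h2, Rc3h1 and Zc3h12a kept their direction and were not called under any of the 14 alternatives, although one of the thresholds, for the adjusted p or for the fold change, was passed in some of them. With 3 libraries against 3, the exact permutation tests of the paralog ratios cannot go below 0.1. Leaving out a library raises this limit to 0.2. With differences paired by replicate number, an exact permutation test gave p = 0.25 for Btg1 to Btg2 and for Zfp36 to Zfp36l2. This exact permutation test gave p = 0.5 for Zfp36l1 to Zfp36l2 and for Zc3h12a to Zc3h12d. For Rc3h1 to Rc3h2 the same exact permutation test gave p = 0.75. Median of ratios scaling divides each library by a factor of its own, so apart from the pseudocount it moves the log2 fold changes of all genes by the same amount. Why the libraries differ in these factors was not tested.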
